A study of Mus musculus with 16 samples.

Results

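Dendritic cells take up antigen in tissues and present it to T cells, and they fall into subsets that differ in surface receptors and in the transcription factors they need. Conventional type 1 dendritic cells (cDC1) depend on *Irf8* and *Batf3* and present antigen to CD8+ T cells, conventional type 2 dendritic cells (cDC2) depend on *Irf4*, and plasmacytoid dendritic cells (pDC) are known for their production of type I interferon. All of them descend from precursors that carry the receptor *Flt3*, and monocytes can also give rise to cells with dendritic features in inflamed tissue. The 9 genes described here were chosen by name as markers of these subsets: *Flt3* and *Zbtb46* for the lineage, *Clec9a*, *Xcr1*, *Batf3* and *Irf8* for cDC1, *Irf4* and *Cd209a* for cDC2 and monocyte-derived cells, and *Siglech* for pDC. Of the 26382 genes in the mouse bulk RNA table, 9 were thus members, and each symbol occurred once.

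The mice were C57BL/6 females of 8 to 10 weeks, and hamstring muscle was taken on day 14. Mice m862 to m866 carried recombinant histidyl-tRNA synthetase (HRS) in the left leg, and their right legs are labelled as contralateral PBS, which gave 5 libraries of each kind. PBS-only mice m867 and m868 gave 4 libraries, 1 from each leg, so that this group holds only 2 animals. From each of m860 and m861 there was 1 library whose leg is not stated. These mice are labelled as treated with HRS, while their titles name an MBP fusion of the protein at 2 to 3 mg/mL, and they are called HRS-MBP here. The general protocol gives 50 μL at 3 to 5 mg/mL to each side, in both hamstrings, which differs from the titles of the 5 mice with a labelled side. The titles were followed.

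The tissue is whole muscle, so a lower value may mean fewer cells of a type or less RNA per cell, and these cannot be told apart. None of the 9 genes belongs to dendritic cells alone: *Irf8* is also expressed by macrophages and B cells, *Irf4* by plasma cells, activated T cells and macrophages, and *Zbtb46* by endothelial cells. Summed levels of marker lists for such cells are therefore given beside the members. Depth, estimated from the smallest step between values, ran from 8.60 M to 73.9 M reads per library and was lowest in mouse m868. A level equal to 3 such implied reads lay between 0.0324 and 0.364 normalized counts, the unit of every level below. Mouse m864 had the highest leukocyte marker sum among the HRS legs and mouse m866 the lowest. The mitochondrial share of the counts was 11.1% in the HRS leg of m866, 3.41% to 6.29% in the other 4 HRS legs, 9.69% to 11.2% in contralateral legs, 11.3% to 13.1% in PBS-only legs and 5.94% to 6.98% in HRS-MBP libraries, and its part in the results was not tested. Muscle fibre markers summed to 38140 to 153893 in HRS legs and to 110825 to 179085 in contralateral legs.

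The sequence just upstream of each gene was searched because 6 members moved together. RefSeq windows on GRCm38.p6, from 250 bases before to 50 after a start site, were found for all 9 members. There were 10 such windows, since *Irf8* had 2. The GAS motif, spelled TTCNNNGAA and known as the interferon-γ activated site, was present in 8.3% of 32851 windows. It occurred at *Irf8*, *Siglech* and *Batf3*, shown here in capitals within the gene's own strand.

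Irf8, chr8:120736108-120736357, plus strand: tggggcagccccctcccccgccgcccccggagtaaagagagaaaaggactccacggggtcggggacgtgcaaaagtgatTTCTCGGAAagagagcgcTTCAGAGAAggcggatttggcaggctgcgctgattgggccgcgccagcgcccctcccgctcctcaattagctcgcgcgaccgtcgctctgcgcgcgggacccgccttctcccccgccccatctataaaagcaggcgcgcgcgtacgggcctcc
Siglech, chr7:55768034-55768093, plus strand: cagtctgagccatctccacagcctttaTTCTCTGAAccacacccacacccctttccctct
Batf3, chr1:191098165-191098193, plus strand: gccacgtgacTTCCACGAAgagcgggggc

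The matches at *Irf8* began 171 and 153 bases before the start site, and 0.457% of all windows held at least 2 matches. That at *Siglech* began 123 bases before its start. The match at *Batf3* began 239 bases before a RefSeq start that lies 567 bases inside the gene as GENCODE M21 annotates it, so this sequence is exonic in that annotation. The interferon-stimulated response element, spelled as GAAA, any 2 bases and GAAA, which IRF proteins bind, was found in 3.44% of windows and in none of the 10. The composite element for ETS and IRF factors, spelled as GGAA, any 2 bases and GAAA and found in 2.72% of windows, had 1 match, on the minus strand at *Cd209a*. The AP-1 element TGANTCA, found in 7.81%, had 1 match, at *Zbtb46*, in a window whose start lies 35038 bases from the M21 start. Both strands were searched. A match is a run of letters, and no binding was measured.

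In the HRS legs, 6 of the 9 genes rose against the PBS legs opposite them: *Irf8*, *Flt3*, *Xcr1*, *Clec9a*, *Batf3* and *Siglech*. Genes were called with limma on log2(normalized count + 0.5) at a Benjamini-Hochberg adjusted p below 0.05 over 16414 tested genes and a log2 fold change beyond 1 in either direction. By that rule 16.9% of all tested genes were higher in HRS legs. The median log2 fold change of the 9 members was 1.74, against 0.08 over all tested genes. The genes labelled for cDC2 and monocyte-derived cells, *Irf4* and *Cd209a*, and the lineage factor *Zbtb46* did not pass. All 9 genes passed the filter on low levels, and 8 of them would have passed on the mean of the 9 PBS libraries alone. *Flt3*, with a mean of 0.220 in PBS, would not have.

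**Figure D1:**
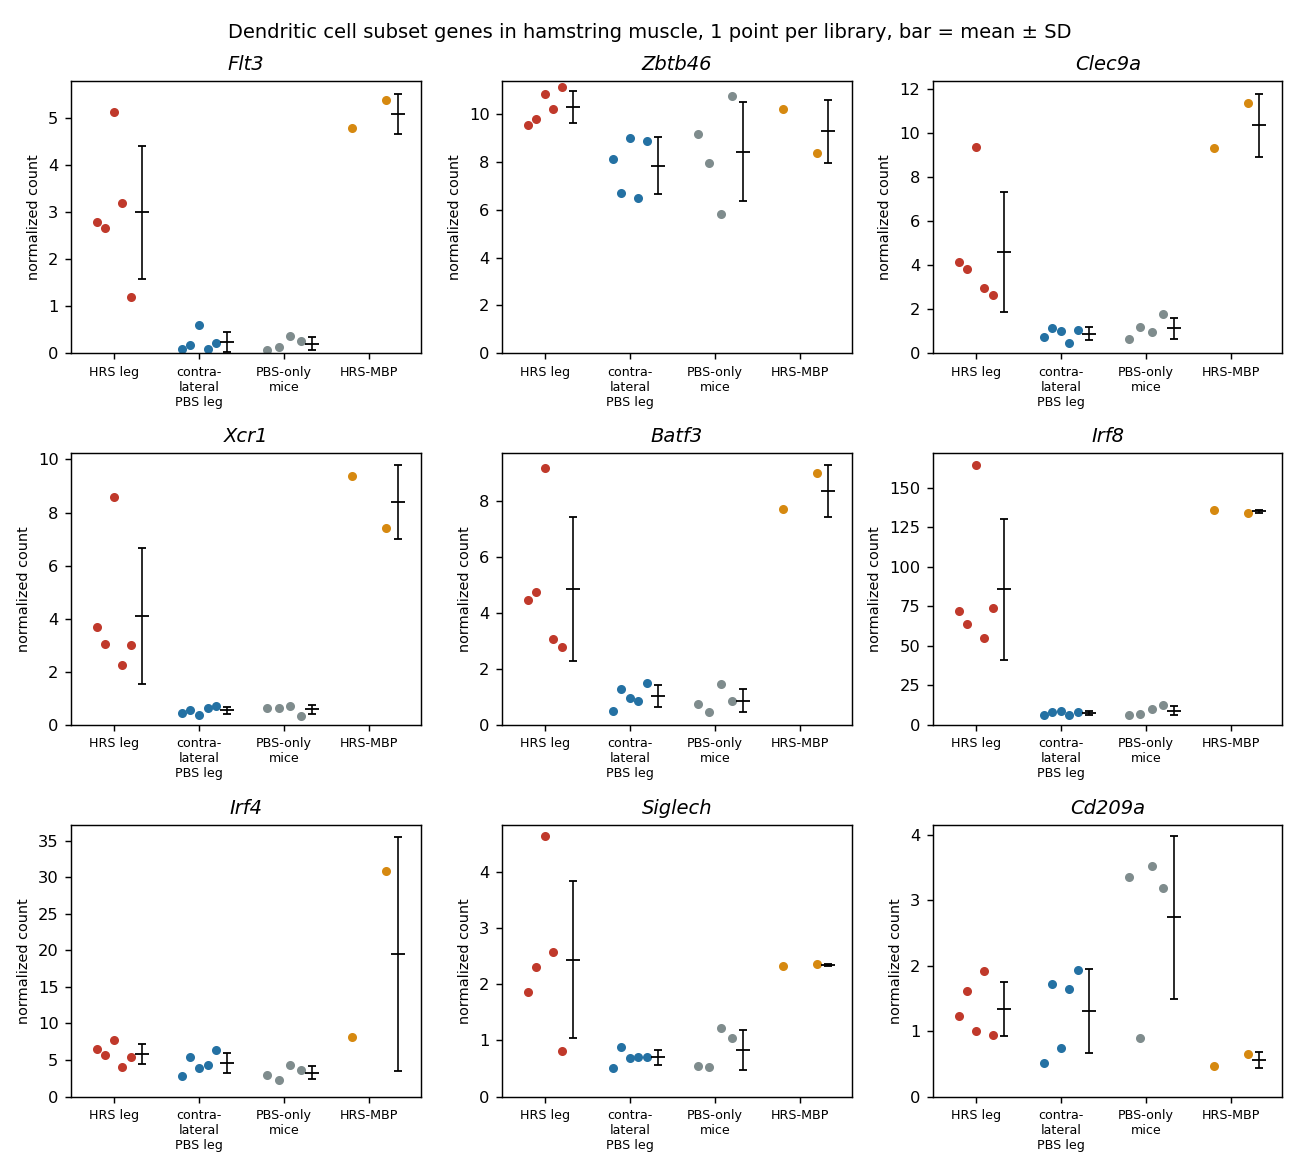
Normalized counts of the 9 genes (vertical axes, linear and from 0) in each of 16 libraries, by group, with the group mean ± SD beside the points. The HRS legs of *Flt3*, *Clec9a*, *Xcr1*, *Batf3* and *Irf8* lie above every PBS library, whereas those of *Cd209a* do not.

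*Flt3* encodes the receptor tyrosine kinase that dendritic cell precursors need to expand. It lies on the minus strand of chr5:147330741-147400489 (GRCm38, as are all gene positions here). Its levels in the HRS legs of m862 to m866 were 2.78, 2.66, 5.13, 3.19 and 1.18. In the contralateral legs of the same mice, in the same order, they were 0.0961, 0.181, 0.600, 0.0882 and 0.215. In PBS-only legs they lay between 0.0568 and 0.364. Every HRS leg was above every PBS leg, by a wide margin in 4 of the 5 mice and by the least in m866. The PBS levels are low, and at each library's step they imply about 38 reads over the 5 contralateral legs against 939 in the HRS legs. The log2 fold change of *Flt3* was 2.18 ± 0.27 (SE, limma, adjusted p = 1.93e-05). Its size depends on the pseudocount, being 1.11 with 2, 3.13 with 0.5 divided by 4 and 3.91 by limma-voom on implied reads, and it was called in each. Its ligand *Flt3l* was 10.1 ± 2.19 in HRS legs (SD, n = 5) and 5.82 ± 0.325 in contralateral legs (n = 5), with a log2 fold change of 0.73 (limma, adjusted p = 0.00153), which is past the p threshold but not past the fold. Against PBS-only legs *Flt3l* was called, at 1.03 in HRS legs (limma, adjusted p = 0.000173) and 1.51 in HRS-MBP (adjusted p = 5.46e-05).

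*Zbtb46* encodes a zinc finger factor of conventional dendritic cells that endothelial cells also carry. Its place is the minus strand of chr2:181387762-181459426. The HRS legs had levels of 9.54, 9.81, 10.9, 10.2 and 11.1. In contralateral legs they were 8.11, 6.69, 9.01, 6.50 and 8.89. The 2 sets did not overlap, but the distance between them was small: the log2 fold change was 0.38 ± 0.15 (limma, adjusted p = 0.0333). Of all tested genes, 18.3% had all 5 HRS legs above all 5 contralateral legs. In PBS-only legs *Zbtb46* ran from 5.82 to 10.8, so that HRS legs overlapped this group, and after quantile normalization its log2 difference between HRS and contralateral legs was -0.0078. The 7 endothelial markers summed to 374 to 442 in HRS legs, 349 to 411 in contralateral legs 330 to 382 in PBS-only legs and 332 to 339 in HRS-MBP libraries. None of the 7 was called between HRS legs and either kind of PBS leg, and 2, *Kdr* (-1.12) and *Cldn5* (-1.08), were called lower in HRS-MBP against PBS-only legs. Their part in the level of *Zbtb46* was not tested.

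*Clec9a* encodes a receptor for actin exposed on dead cells and is among the most restricted cDC1 genes. The gene spans chr6:129408862-129424763 on the plus strand. The 5 HRS legs read 4.15, 3.82, 9.34, 2.94 and 2.65. The opposite legs read 0.737, 1.14, 1.02, 0.441 and 1.05. The PBS-only legs covered 0.625 to 1.76. No PBS library reached the lowest HRS leg, and the HRS leg of m864 was the highest of the 5. The log2 fold change between HRS and contralateral legs was 1.78 ± 0.28 (limma, adjusted p = 0.000147), and it was 1.51 without the HRS leg of m864, where the gene was still called.

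*Xcr1* encodes the receptor for the chemokine XCL1, which T cells and NK cells release. The gene spans chr9:123852315-123862029 on the minus strand. Its levels in HRS legs were 3.67, 3.04, 8.59, 2.24 and 2.99. In contralateral legs they were 0.449, 0.544, 0.369, 0.618 and 0.727. In PBS-only legs they ran from 0.326 to 0.728. The groups were again apart, with m864 the highest HRS leg, and the log2 fold change of *Xcr1* was 2.02 ± 0.26 (limma, adjusted p = 2.42e-05). The ligand *Xcl1* ran from 1.26 to 3.47 in HRS legs and was at most 0.139 in any PBS library. Its means over the PBS groups, 0.0615 and 0.0475, lie under the filter of 0.5 on the mean, so it was tested only because it was high with HRS, and its fitted fold change of 2.19 on the log2 scale is set by the pseudocount.

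*Batf3* encodes a basic leucine zipper factor without which cDC1 do not develop. The gene spans chr1:191097847-191108945 on the plus strand. Levels in HRS legs were 4.48, 4.75, 9.22, 3.08 and 2.80. Contralateral legs had 0.513, 1.30, 0.970, 0.853 and 1.51. In PBS-only legs they ran from 0.445 to 1.46. The sets did not overlap, and the log2 fold change between HRS and contralateral legs was 1.74 ± 0.28 (limma, adjusted p = 0.000184).

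*Irf8* encodes the interferon regulatory factor that cDC1, pDC and monocytes depend on. It lies on the plus strand of chr8:120736358-120756694, within the span of the readthrough gene *Gm20388* in GENCODE M21, so its reads may be shared in counting. Its levels in HRS legs were 72.0, 63.9, 164, 55.1 and 74.0. In contralateral legs they were 6.18, 8.36, 8.68, 6.50 and 8.05. In PBS-only legs they ran from 6.48 to 12.8. All HRS legs stood far above all PBS legs, and the log2 fold change of 3.32 ± 0.25 between HRS and contralateral legs (limma, adjusted p = 1.16e-06) was the highest of the 9 members on the scale with 0.5 added. Without a pseudocount the ratio of mean levels was higher for *Flt3* (12.6) than for *Irf8* (11.4). The lists of other cells that carry *Irf8* moved with it. Macrophage markers rose in 10 of 11 tested genes and fell in 1, with sums of 588 to 2655 in HRS legs and 147 to 304 in contralateral legs. B cell markers rose in 4 of 5 tested genes, with sums of 4.55 to 25.8 against 1.06 to 1.58. Of these, *Cd79b* (0.321 and 0.314) and *Ms4a1* (0.120 and 0.0891) had means in the PBS groups under the filter of 0.5. They were tested only because they were high with HRS or HRS-MBP, so this count is in part set by the filter. The part of both lists in the level of *Irf8* was not tested.

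*Irf4* encodes the related factor of cDC2, which also acts in plasma cells and activated T cells. The gene spans chr13:30749226-30766976 on the plus strand. Its levels in HRS legs were 6.45, 5.72, 7.81, 4.11 and 5.36. In contralateral legs they were 2.88, 5.49, 3.88, 4.26 and 6.44. In PBS-only legs they ran from 2.22 to 4.37. HRS and contralateral legs overlapped, and 3 of the 5 mice had the higher level in the HRS leg. The log2 difference was 0.35 ± 0.30 (limma, adjusted p = 0.322), and it was -0.082 after quantile normalization. *Irf8* exceeded *Irf4* by 11.2- to 21.1-fold in HRS legs but by 1.25- to 2.24-fold in contralateral legs and 2.19- to 3.52-fold in PBS-only legs. In the 2 HRS-MBP libraries the ratio was 4.36 and 16.7.

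*Siglech* encodes a sialic acid-binding lectin of mouse pDC, found also on microglia and some macrophages. Its place is the plus strand of chr7:55768178-55778925. The 5 HRS legs read 1.87, 2.30, 4.63, 2.56 and 0.810. The opposite legs read 0.513, 0.890, 0.693, 0.706 and 0.700. The PBS-only legs covered 0.526 to 1.21. The groups overlapped through m866, whose HRS leg lay under the contralateral leg of m863. The log2 fold change between HRS and contralateral legs was 1.16 ± 0.28 (limma, adjusted p = 0.00266), close to the fold threshold, and without the HRS leg of m864 it was 0.93 and the gene was not called.

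*Cd209a* encodes DC-SIGN, a lectin of monocyte-derived dendritic cells and of part of the cDC2. It lies on the minus strand of chr8:3743397-3748984. Its levels in HRS legs were 1.23, 1.61, 1.0, 1.92 and 0.935. In contralateral legs they were 0.513, 1.71, 0.739, 1.65 and 1.94. The 2 sets overlapped along most of their range, 3 of 5 mice had the higher level in the HRS leg, and the log2 difference was 0.08 ± 0.31 (limma, adjusted p = 0.840). In the PBS-only legs of m867 and m868 the levels were 3.35 (m867 right), 0.890 (m867 left), 3.52 (m868 right) and 3.19 (m868 left). All but the left leg of m867 were thus above every leg of the HRS mice.

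**Figure D2:**
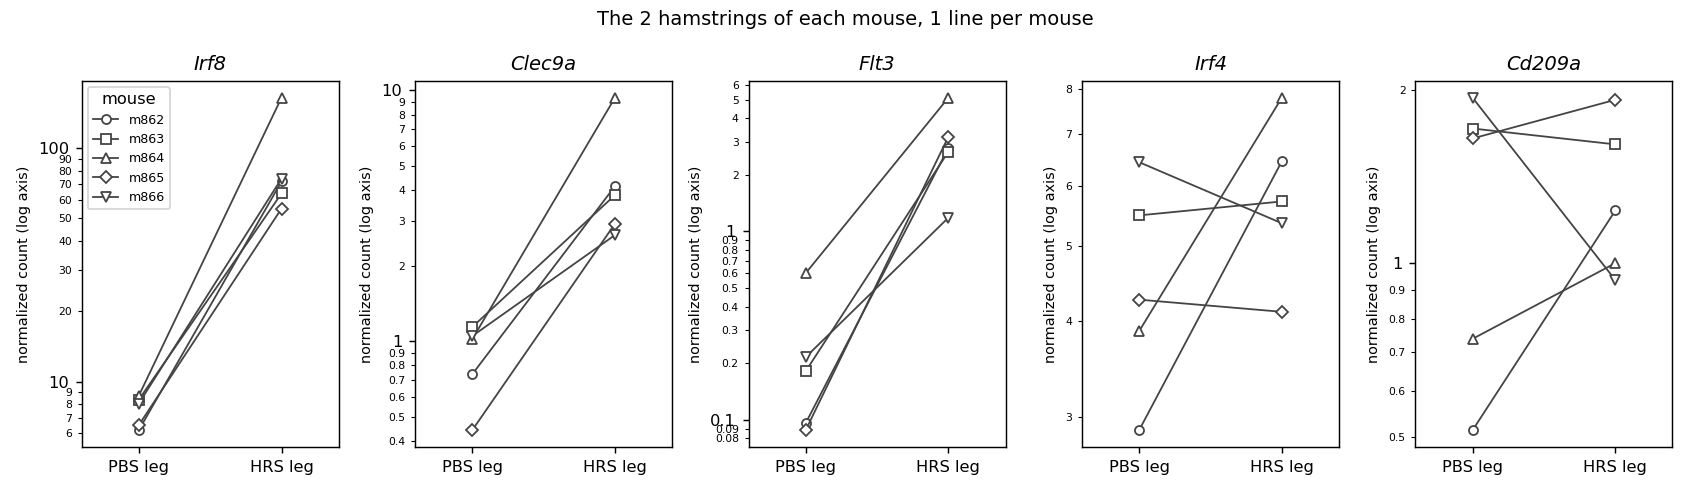
Normalized counts (log axes) of *Irf8*, *Clec9a*, *Flt3*, *Irf4* and *Cd209a* in the contralateral PBS leg and the HRS leg of each mouse, joined by 1 line per mouse. The first 3 genes were higher in the HRS leg of 5 of 5 mice, and *Irf4* and *Cd209a* in 3 of 5.

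Within single mice, 7 of the 9 genes were higher in the HRS leg of all 5 animals, *Zbtb46* among them, on a background of 26.3% of tested genes. The within-mouse difference of log2(normalized count + 0.5) had a median of 3.12 for *Irf8* (2.86 to 4.17), 2.35 for *Flt3* (1.24 to 2.65), 1.76 for *Xcr1* (1.30 to 3.39), 1.87 for *Clec9a* (1.02 to 2.70) and 1.54 for *Batf3* (0.72 to 2.72). The plain ratio of the 2 legs, with no pseudocount, put *Flt3* above *Irf8*, with 14.7 in the median mouse (5.50 to 36.1) against 9.20 (7.65 to 18.9). The log2 difference ran from -0.24 to 1.04 for *Irf4* and from -0.77 to 0.78 for *Cd209a*. Levels were also compared by an exact two-sided permutation of the libraries, which shuffled the legs freely, in all 5 comparisons. The Benjamini-Hochberg adjustment covered only the 18 tests of HRS legs against either kind of PBS leg. No adjustment over all the tests run was computed. In the other comparisons the lowest p of a member in this exact test was 0.0635 (*Cd209a*, contralateral against PBS-only legs). Between HRS and contralateral legs p was 0.00794, the lowest that 5 against 5 libraries allow, for *Flt3*, *Zbtb46*, *Clec9a*, *Xcr1*, *Batf3* and *Irf8*. In the same exact test p was 0.0159 for *Siglech*, 0.175 for *Irf4* and 0.960 for *Cd209a*, and the first 7 had a Benjamini-Hochberg adjusted p of 0.0238. An exact test that keeps the 2 legs of a mouse together, by sign flips over the 5 mice (chosen after seeing the data), cannot go below 0.0625, which was its p for these 7 genes, so that no member passed 0.05 in it. Against PBS-only legs, the other 9 of the 18 adjusted permutation tests gave an adjusted p of 0.0238 for *Flt3*, *Clec9a*, *Xcr1*, *Batf3* and *Irf8* and 0.0440 for *Irf4*. *Siglech* (0.0612), *Zbtb46* (0.107) and *Cd209a* (0.107) did not pass. These tests count each of the 4 PBS-only legs as a unit. With each of the 2 PBS-only mice as the mean of its legs (chosen after seeing the data), the 21 arrangements of 5 against 2 animals cannot give an exact two-sided p below 0.0952, so that no member passed 0.05.

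Compared with the PBS-only mice, which share the HRS legs with the comparison above, 6 genes were called higher in HRS legs, on a background of 18.9% of tested genes. The log2 fold changes were 3.11 for *Irf8*, 2.23 for *Flt3*, 1.97 for *Xcr1*, 1.90 for *Batf3*, 1.55 for *Clec9a* and 1.04 for *Siglech* (limma, adjusted p from 1.55e-06 for *Irf8* to 0.00713 for *Siglech*). These were the members called against the contralateral legs. *Irf4* had a log2 difference of 0.76 ± 0.32 (limma, adjusted p = 0.0486), under the fold threshold, and *Zbtb46* 0.30 ± 0.16 (adjusted p = 0.101). *Cd209a* was lower in HRS legs by -0.73 ± 0.33 on the log2 scale but was not called (limma, adjusted p = 0.0688). Since both legs of 1 mouse entered as separate libraries, these p-values treat legs as if they were animals. Without mouse m868, *Irf4* was called at 1.03 (adjusted p = 0.0493), and without the left leg of m867 *Cd209a* was called at -1.10 (adjusted p = 0.00646), as it was after quantile normalization at -1.20 (adjusted p = 0.00405). *Siglech* was not called without the HRS leg of m864, the HRS leg of m865, or either leg of m867, with log2 fold changes of 0.81, 0.995, 0.94 (right) and 0.93 (left). It was also not called with a pseudocount of 2 (0.60), after median-ratio rescaling (0.94) or after quantile normalization (0.58).

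No member was called between the contralateral PBS legs and the PBS-only legs by limma, where 0.00609% of tested genes, 1 gene, were called. At an unadjusted p below 0.05 there was 1 member, *Cd209a*, on a background of 5.5% of tested genes, and limma-voom called 0. *Cd209a* was lower in contralateral legs, at 1.31 ± 0.639 (SD, n = 5) against 2.74 ± 1.24 (n = 4), with a log2 difference of -0.81 ± 0.33 (limma, adjusted p = 0.861). The other 8 members had log2 differences between -0.23 for *Clec9a* and 0.41 for *Irf4*.

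In the HRS-MBP libraries, 7 members were higher than in the PBS-only legs, where 20.7% of tested genes were called higher, and 1 was lower, where 10.2% were called lower. In m860 and m861 the levels were 4.79 and 5.38 for *Flt3*, 9.31 and 11.4 for *Clec9a*, 9.37 and 7.41 for *Xcr1*, 7.72 and 9.03 for *Batf3*, and 136 and 134 for *Irf8*. All of these lay above the PBS-only legs. Among HRS legs, only that of m864 reached the same range. The log2 fold changes against PBS-only legs were 3.88 for *Irf8*, 3.05 for *Xcr1*, 3.01 for *Flt3*, 2.77 for *Clec9a* and 2.74 for *Batf3* (limma, adjusted p from 1.87e-06 for *Irf8* to 4.67e-05 for *Batf3*). *Siglech*, at 2.32 and 2.36, had 1.13 (adjusted p = 0.0197), and *Zbtb46*, at 10.2 and 8.36, had 0.16 (adjusted p = 0.515). The limma fit counted each PBS-only leg as a unit, although both legs of a mouse share an animal. In the exact two-sided permutation of libraries p was 0.133 for every member but *Zbtb46* (0.8). That is the lowest p that 2 against 4 libraries allow, so no member could pass 0.05 in it. With m860 or m861 left out, *Siglech* was not called (limma, adjusted p = 0.0871 and 0.0883), nor when each PBS-only mouse entered as the mean of both its legs (adjusted p = 0.0539), with a pseudocount of 2 (0.62) or after quantile normalization (0.62).

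*Cd209a* was at 0.468 in m860 and 0.645 in m861, under every PBS-only leg. Its log2 difference from PBS-only legs was -1.50 ± 0.43 (limma, adjusted p = 0.00825). The call did not hold without m860 (-1.38, adjusted p = 0.0676), without both legs of m868 (-1.14, adjusted p = 0.0698) or with a pseudocount of 2 (-0.84, under the fold threshold).

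*Irf4* differed most between the 2 HRS-MBP mice, with 8.15 in m860 and 30.8 in m861. Against PBS-only legs its log2 fold change was 2.15 ± 0.41 (limma, adjusted p = 0.000583), 1.22 without m861 (adjusted p = 0.0260) and 3.08 without m860. The 5 plasma cell markers moved in the same libraries. They summed to 117 in m860 and 702 in m861, to 55.8 to 79.6 in HRS legs, 6.24 to 16.8 in contralateral legs and 6.51 to 9.70 in PBS-only legs. *Jchain*, the joining chain of secreted IgM and IgA, was 338 ± 371 in HRS-MBP (SD, n = 2) and 29.7 ± 12.8 in HRS legs (n = 5). Their part in the level of *Irf4* was not tested.

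Between HRS-MBP and HRS legs no member was called by limma, where 0.463% of tested genes were. At an unadjusted p below 0.05 there were 6 members, all higher in HRS-MBP, on a background of 14.4% of tested genes either way, and limma-voom called 0. The highest difference was that of *Irf4*, 1.39 ± 0.39 on the log2 scale (adjusted p = 0.139), followed by *Clec9a* at 1.22 (0.164) and *Xcr1* at 1.08 (0.181). Without the HRS leg of m864, where 3.59% of tested genes were called, 4 members were: *Clec9a* at 1.49, *Irf4* at 1.49, *Xcr1* at 1.36 and *Irf8* at 1.03. Without m860, *Irf4* alone was called, at 2.32, and without m861 it was at 0.46 and not called.

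**Figure D3:**
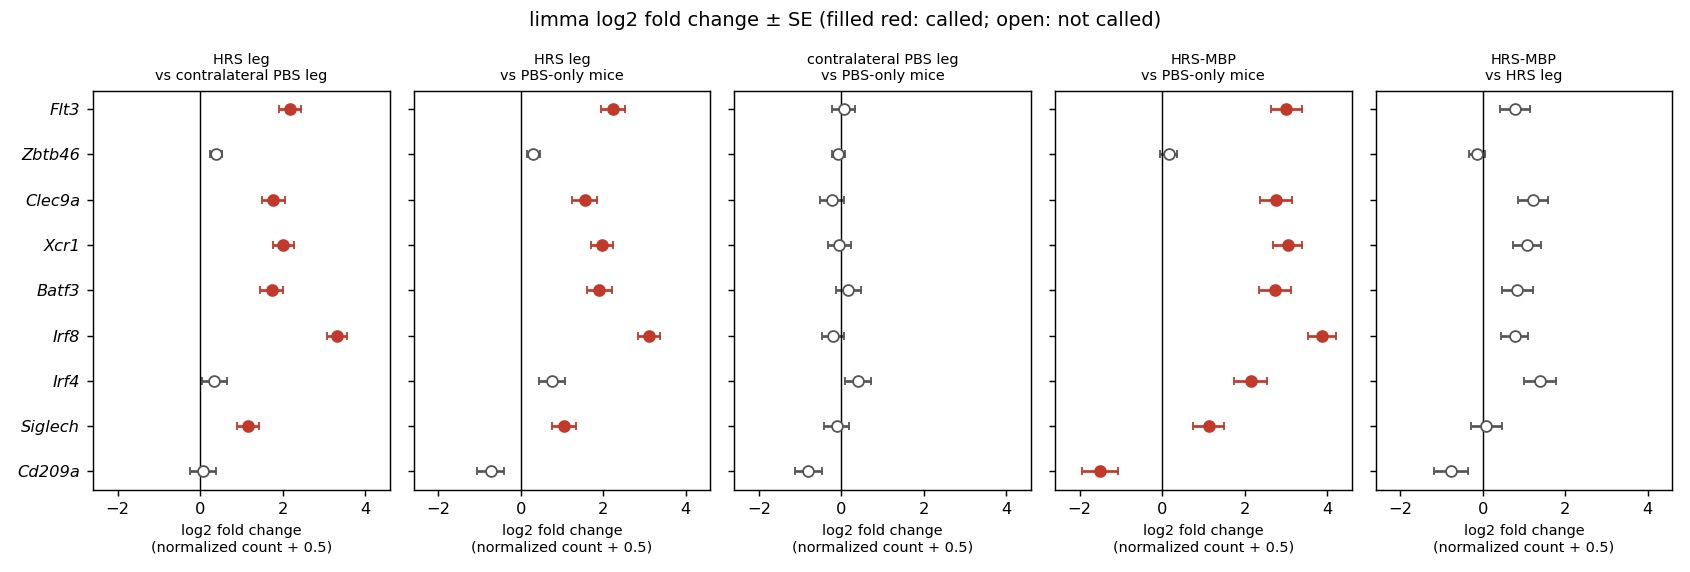
log2 fold change ± SE of the 9 genes in 5 comparisons, from limma on log2(normalized count + 0.5), with called genes filled in red. Against both kinds of PBS leg the HRS legs had 6 called genes, HRS-MBP had 8 with *Cd209a* on the lower side, and the other 2 comparisons had none.

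To set the members against a gene common to leukocytes, each library's level was divided by that of *Ptprc*, which encodes CD45, the phosphatase on the surface of leukocytes. *Ptprc* was 134 ± 84.3 in HRS legs and 7.63 ± 2.52 in contralateral legs (SD, n = 5 each). Relative to it, 8 of the 9 members were lower in HRS than in contralateral legs, but so were 98% of all tested genes, so the count says nothing particular of the members. The exception was *Irf8*, with a log2 difference of -0.62 ± 0.38 (limma, adjusted p = 0.117). Next came *Flt3* at -1.75, *Xcr1* at -1.91, *Clec9a* at -2.15, *Batf3* at -2.20 and *Siglech* at -2.77, then *Zbtb46* at -3.55, *Irf4* at -3.59 and *Cd209a* at -3.85. The median over all genes was -3.86. The pseudocount of 0.5 weighs on these values for low genes: without it, *Flt3* per 100 *Ptprc* had a median of 2.40 in HRS legs and 2.37 in contralateral legs, while *Cd209a* had 1.46 and 18.4.

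**Figure D4:**
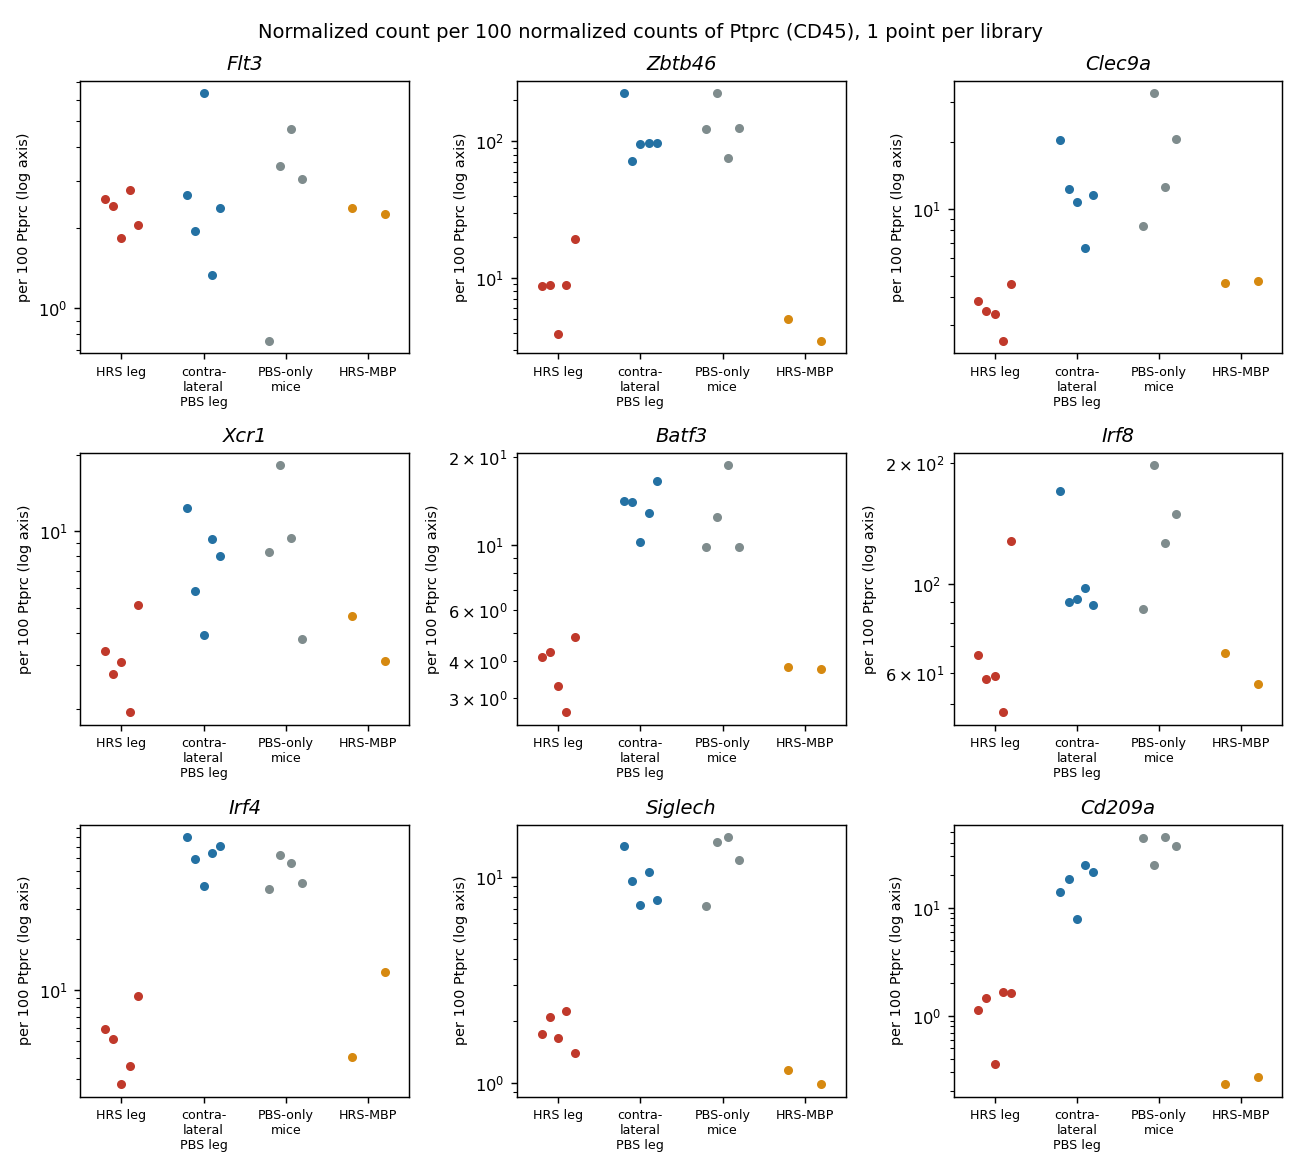
Normalized count of each gene per 100 normalized counts of *Ptprc* (log axes) in each of 16 libraries, by group. *Flt3* covers a like range in HRS legs (1.84 to 2.76) and contralateral legs (1.33 to 6.34), and the ranges of *Xcr1* and *Irf8* overlap too. Those of *Zbtb46*, *Clec9a*, *Batf3*, *Siglech*, *Irf4* (2.80 to 9.24 against 41.0 to 79.6) and *Cd209a* (0.358 to 1.67 against 7.80 to 24.8) do not. Relative to *Ptprc*, 98% of all tested genes were called lower in HRS legs, and the share of genes without overlap was not computed.

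Per kilobase of exon, *Irf8* had the highest level of the 9 in HRS legs (12.2), HRS-MBP (19.2) and contralateral legs (1.07, with a range that overlapped that of *Irf4* at 0.936), whereas *Cd209a* led in PBS-only legs (1.73) ahead of *Irf8* (1.28), with overlapping ranges. In HRS legs *Batf3* came second (3.05), followed by *Clec9a* (1.39), *Zbtb46* (1.21), *Irf4* (1.20), *Xcr1* (0.923), *Cd209a* (0.847), *Siglech* (0.719) and *Flt3* (0.484). Of these neighbours, only *Irf8* and *Batf3* had ranges over the 5 legs that did not overlap.

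The other genes of each subset, from lists chosen by name, were read against the same background of 16.9% called higher between HRS and contralateral legs. Of 12 further cDC1 genes, 11 were tested, 9 rose and 1 fell, with a median log2 fold change of 1.38. *Wdfy4*, needed for cross-presentation, rose by 2.95 and *Naaa*, a lysosomal amidase, by 2.27. *Itgae*, which encodes CD103, was close to the threshold at 1.02, *Cadm1* did not pass at 0.54, and the gene that fell was *Cd24a* at -1.12. Of 8 further cDC2 genes, 7 were tested, 5 rose and 1 fell, with a median of 1.69. *Itgax* (CD11c) rose by 4.13 and *Itgam* (CD11b) by 3.58, both of which macrophages also carry, and *Mgl2*, a lectin of dermal cDC2 and of macrophages, was at -1.09. Of 16 further pDC genes, 12 were tested and 9 rose, with a median of 2.16, led by *Lair1* at 3.81 and *Tlr9* at 3.38. *Tcf4*, the factor that pDC depend on, was at 0.41, *Ly6d* at 0.23 and *Atp1b1*, a subunit of the sodium pump, at -0.93 (limma, adjusted p = 0.00384), and none of these 3 was called. *Klk1*, *Cd300c* and *Klra17* were at 0 in all PBS-only legs and were not tested.

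Of the 8 genes for monocytes and monocyte-derived dendritic cells, 7 were tested and all 7 rose (median 2.87), with *Ly6c2* at 4.14 and *Tnf* at 3.46. Among 10 growth factors, chemokines and receptors, 9 were tested and 7 rose (median 2.19), led by the GM-CSF receptor chains *Csf2rb* at 2.98 and *Csf2rb2* at 2.82. The GM-CSF gene *Csf2* itself was at 0 in all 9 PBS libraries and at most 0.176 in HRS legs, so it was not tested. Of 10 other transcription factors of dendritic cells, 8 rose (median 1.99), with *Spi1* at 3.41 and *Batf2* at 3.23, while *Bcl6* at -0.68 and *Nfil3* at -0.93 were not called. *Nfil3* was called lower in HRS-MBP against PBS-only legs (-1.64). In the IRF family outside the members, 4 of 7 rose (median 1.57): *Irf1* at 2.91, *Irf5* at 2.62, *Irf7* at 2.47 and *Irf9* at 1.57. *Irf2* at 0.44 and *Irf3* at 0.39 were not called. Genes of mature dendritic cells rose in 13 of 17 tested (median 1.98), with the costimulatory receptor *Cd40* at 3.17 and *Ccr7*, the receptor that leads dendritic cells to lymph nodes, at 2.65. *Ccr7* had PBS means of 0.085 and 0.225, so it too was tested only because it was high with HRS, and the pseudocount weighs on its value. Of the 4 mature dendritic cell genes that were not called, *Tmem123* (0.90) and *Nudt17* (0.60) had positive values and *Socs2* (-0.90) and *Il15* (-0.40) negative ones. *Socs2* was called lower in HRS-MBP against PBS-only legs (-1.30).

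Unlike *Cd209a*, which was not called between HRS and contralateral legs, its tested paralogues on chromosome 8 were lower in HRS legs. Of 6 paralogues, 4 were tested and all 4 fell between HRS and contralateral legs, where the median log2 fold change was -1.61 and 6.27% of tested genes were called lower. *Cd209b*, a lectin of marginal zone macrophages, was 0.223 ± 0.268 in HRS legs and 2.66 ± 1.97 in contralateral legs (SD, n = 5 each), a log2 change of -1.98 ± 0.40 (limma, adjusted p = 0.00101). *Cd209f* was 6.17 ± 4.28 and 20.5 ± 9.19, a change of -1.77 ± 0.44 (limma, adjusted p = 0.00342). *Cd209d* fell by 1.44 and *Cd209g* by 1.36 on the log2 scale. Against PBS-only mice, *Cd209f* at -0.68 and *Cd209g* at -0.59 were not called in HRS legs (limma, adjusted p = 0.216 and 0.239), and *Cd209b* at -1.82 and *Cd209d* at -1.50 were. The paralogues are similar in sequence, and how reads that fit more than 1 of them were counted is not given in the sources used here, so the split between them is uncertain.

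**Figure D5:**
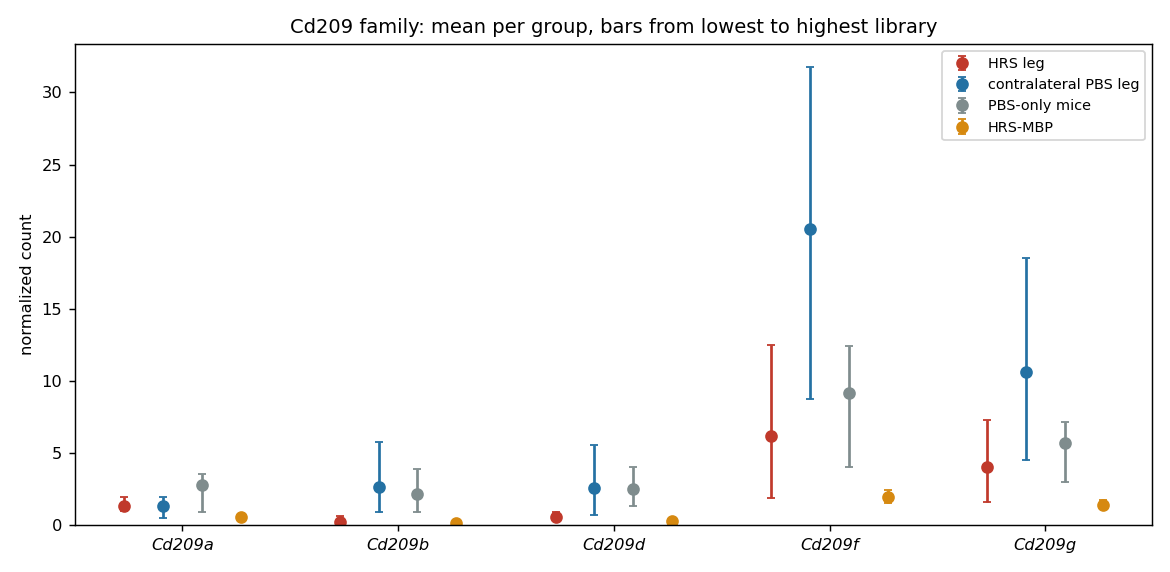
Normalized counts of *Cd209a* and its 4 tested paralogues by group (linear axis from 0), with the mean as a point and bars from the lowest to the highest library. *Cd209a* is close between HRS legs (1.34) and contralateral legs (1.31), whereas *Cd209b* (0.223 and 2.66) and *Cd209f* (6.17 and 20.5) are lower in HRS legs.

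Lists for other leukocytes rose in the same legs. T cell markers rose in 8 of 8 genes (median 2.64), NK cell markers in 6 of 6 (2.49), neutrophil markers in 5 of 5 tested (3.29), plasma cell markers in 3 of 4 tested (1.87) and general leukocyte markers in 6 of 6 (3.78). *Ly6g*, the defining neutrophil gene, was at 0 in all 9 PBS libraries and under the filter. Muscle fibre markers fell in 3 of 7 (median -1.10), where 6.27% of all tested genes were called lower.

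Over the 16 libraries, the gene whose log2 level followed each member most closely (Pearson's r, as a description, since group differences drive it) was *AB124611* for *Flt3* (0.995), *Smchd1* for *Clec9a* (0.989), *Cd7* for *Xcr1* (0.986), *Sema4a* for *Batf3* (0.993), *Slamf8* for *Irf8* (0.992) and *Exo5* for *Siglech* (0.977). After *Sema4a*, *Batf3* was followed by the class II genes *H2-Aa* (0.992) and *H2-Ab1* (0.991). *Irf4* was followed by *Derl3* (0.915), *Bhlha15* (0.913) and *Eaf2* (0.896), of which the first 2 are genes of secretory cells such as plasma cells. *Zbtb46* reached 0.845, with *AA986860*, and *Cd209a* 0.824, with *Cxxc4*. The points share library, depth and group.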

How the data were processed

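The authors deposited normalized counts for 16 bulk RNA libraries of mouse hamstring, a signal that is never negative and not log-transformed. Per the labels, libraries were poly(A)-selected and prepared with a directional kit on 3 Illumina platforms, and the submitters' processing notes name STAR 2.7.8a, limma and the builds mm39 and GRCm39. The table's coordinates, however, matched GENCODE M21 (GRCm38) for 98.9% of 25652 genes with the same symbol, so they are given as GRCm38. The scaling and strand use in counting are not given in the sources used here. In each library a step between low values was sought, and 74.7% to 76.5% of low values fell on its whole multiples (tolerance 0.02 steps), not nearly all, so no reads were taken as recovered. The step gave the implied depth and the level of 3 reads.

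Tests used R 4.3.3 and limma 3.58.1 (lmFit, eBayes with trend) on log2(normalized count + 0.5), a scale that understates the change of low genes. The 16414 genes whose mean reached 0.5 entered 1 fit of 4 groups, with adjusted p (Benjamini-Hochberg) over all of them. The counts are normalized, so no count model was used, except limma-voom on implied reads as an alternative. The limma fit was tested on simulated data for HRS against contralateral legs. Nothing states whether the mice of a group were handled as separate experiments, and both legs of the PBS-only mice share an animal.

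HRS and contralateral legs with the same mouse number came from the same animal per the labels, so the numbers pair them. Deviations from group means correlated across genes at 0.12, 0.16, 0.097, -0.026 and -0.37 in m862 to m866. The fit had no block.

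The members and lists were chosen with earlier results of these data known. The rule for named genes gave the 9 members, *Flt3l*, *Csf2*, *Xcl1*, *Ptprc*, the 2 largest called changes of each list and the 3 closest genes by correlation. Other list genes named were chosen after their values were seen. Columns of per-sample values that went unused numbered 0.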

Additional observations from a re-analysis of the deposited data

Results flagged for a closer look

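Of 27 sets of values examined (9 genes in the 3 groups of 4 or 5 libraries), 5 held a library far from the others by Dixon's criterion, where chance gives about 1 in 20. The HRS leg of m864 was high for *Clec9a* (9.34, the others 2.65 to 4.15), *Xcr1* (8.59, the others 2.24 to 3.67) and *Irf8* (164, the others 55.1 to 74.0). The contralateral PBS leg of the same mouse was high for *Flt3* (0.600, the others 0.0882 to 0.215), about 13 implied reads. The left leg of PBS-only mouse m867 was low for *Cd209a* (0.890, the others 3.19 to 3.52), while the right leg of that mouse was at 3.35.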

How the results depend on the processing

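For 38 member fold changes (all 9 members in the 4 comparisons with HRS or HRS-MBP, and *Irf4* and *Cd209a* between contralateral and PBS-only legs), 1060 alternatives were computed and 1025 kept direction and side of the threshold, 18 lost a call, 8 gained one and 9 reversed a value that was not called. The number of members called moved with the filter at a mean of 2, under which fewer members were tested: 4 were then called in HRS legs against either kind of PBS leg, 5 in HRS-MBP libraries and 5 relative to *Ptprc*. With a pseudocount of 2 the log2 fold changes between HRS and contralateral legs fell to 1.11 for *Flt3*, 1.12 for *Clec9a*, 1.19 for *Xcr1* and 1.12 for *Batf3*, all still called. With single libraries left out, HRS-MBP against HRS legs had 0 to 4 members called. Under quantile normalization the all-gene median between HRS and contralateral legs was -0.16 in place of 0.08 (log2), and *Zbtb46* reversed (-0.0078 against contralateral legs, -0.15 for HRS and -0.33 for HRS-MBP against PBS-only mice), as did *Irf4* (-0.082) and *Cd209a* (-0.30) between HRS and contralateral legs. *Siglech* was then not called there (0.77), nor with a pseudocount of 2 (0.66). With 1 library left out, *Cd209a* between HRS and contralateral legs ran from -0.11 to 0.21 and *Siglech* between HRS-MBP and HRS legs from -0.17 (without m866) to 0.32. The cause was not tested. With mouse as a replicate block, fixed or random, 6 members were called between HRS and contralateral legs and 8 were called relative to *Ptprc*, and the block changed no other call of a member. Leaving out mouse m868 was chosen after seeing the data. Limma-voom was not run relative to *Ptprc*. Depth limits *Flt3* in PBS, with about 2 to 13 implied reads per library.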
